A study of Mus musculus with 10 samples.

Results

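The genes described here are 39 mouse genes of the lysosome, listed by symbol for their known role, with earlier results of these data known, out of 54446 gene identifiers counted in each library. They comprise 12 proteases, 9 glycosidases and sulfatases, 7 enzymes and carriers of lipids, 7 membrane proteins and 4 regulators, and 38 of the 39 passed the filter on low counts and were tested. Polyadenylated RNA was sequenced from tumours of TH-MYCN mice, a neuroblastoma model in which the tyrosine hydroxylase promoter drives a human MYCN transgene in sympathetic precursors, so every group carries the transgene. Tumours were untreated (n = 3), or taken after 24 h (n = 3) or 5 days (n = 4) of treatment with MLN8237 (alisertib, an inhibitor of Aurora-A kinase) and AZD6738 (ceralasertib, an inhibitor of ATR kinase). Sample titles speak of combined treatment and the series description links the compounds by "or". No title among the 10 libraries names a single-drug or vehicle arm. Which compounds each treated tumour received is not settled by these sources. No source used here gives age or sex, or says that a group's tumours came from different animals. The p-values therefore reflect only how far these libraries differ. In the 24 h group the libraries carry the numbers 2, 3 and 4, and that numbering is kept.

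Lysosomes are acidified by a proton pump and hold acid hydrolases that break down proteins, glycans and lipids delivered by endocytosis, phagocytosis and autophagy. Cathepsins cut proteins, glycosidases and sulfatases strip sugars and sulfate groups, and saposins present lipids to their hydrolases. Transcription factors of the MiT family (TFEB, TFE3 and MITF), which mTORC1 holds in the cytoplasm when nutrients are plentiful, bind CACGTG motifs near many lysosomal genes. Macrophages are rich in lysosomes, and most of these genes are active in nearly every cell type of a tumour as well.

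Promoters from RefSeq (build GRCm38.p6, 250 bases before to 50 after each start) were found for 34 of the 39 genes, Ctsb, Ctsh, Galns, Asah1 and Npc1 having no entry in the table used. The motif CACGTG, which reads the same on both strands, was present in 38.2% of these 34 genes (13 genes), against 8.09% of all 27025 genes in the table. Its longer form TCACGTGA, which contains it, was present in 14.7% of them (5 genes), against 1.12% of all genes. Of the 13 genes, 5 are glycosidases or sulfatases, 5 are proteases and 3 are membrane proteins, and no promoter of a lipid enzyme or of a regulator held the motif. The 6 sequences below are those of Ctsd, Ctsa, Gla and Lamp1, the genes that lay above all untreated libraries in every 5-day library, and of Mcoln1 and Cln3, which hold the motif and did not do so. Each runs 5′ to 3′, with CACGTG or TCACGTGA in capitals.
Ctsd, chr7:142387778-142388077 (minus strand): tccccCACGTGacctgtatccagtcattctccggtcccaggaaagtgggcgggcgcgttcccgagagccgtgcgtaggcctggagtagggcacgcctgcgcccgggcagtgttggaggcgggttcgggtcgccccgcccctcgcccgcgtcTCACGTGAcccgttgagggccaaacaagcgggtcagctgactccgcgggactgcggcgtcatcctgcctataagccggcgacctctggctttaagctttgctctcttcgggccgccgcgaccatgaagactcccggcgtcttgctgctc
Ctsa, chr2:164833523-164833822 (plus strand): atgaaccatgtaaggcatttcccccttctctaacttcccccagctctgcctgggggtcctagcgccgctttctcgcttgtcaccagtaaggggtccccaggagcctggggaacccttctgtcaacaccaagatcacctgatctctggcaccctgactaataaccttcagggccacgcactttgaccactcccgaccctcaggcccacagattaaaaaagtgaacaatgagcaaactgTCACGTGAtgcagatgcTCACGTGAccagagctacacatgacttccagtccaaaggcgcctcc
Gla, chrX:134600956-134601255 (minus strand): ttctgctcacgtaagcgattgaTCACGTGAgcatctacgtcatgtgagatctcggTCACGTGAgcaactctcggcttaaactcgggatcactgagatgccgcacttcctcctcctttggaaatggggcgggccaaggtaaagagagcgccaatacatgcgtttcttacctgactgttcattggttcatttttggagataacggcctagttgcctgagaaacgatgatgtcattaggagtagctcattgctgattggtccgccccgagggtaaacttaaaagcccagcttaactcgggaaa
Lamp1, chr8:13158911-13159210 (plus strand): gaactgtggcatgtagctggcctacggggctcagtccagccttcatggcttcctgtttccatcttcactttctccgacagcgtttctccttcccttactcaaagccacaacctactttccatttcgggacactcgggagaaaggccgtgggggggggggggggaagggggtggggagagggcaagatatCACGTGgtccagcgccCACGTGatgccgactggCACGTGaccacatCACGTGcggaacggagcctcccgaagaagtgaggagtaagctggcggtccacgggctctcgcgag
Mcoln1, chr8:3500269-3500568 (plus strand): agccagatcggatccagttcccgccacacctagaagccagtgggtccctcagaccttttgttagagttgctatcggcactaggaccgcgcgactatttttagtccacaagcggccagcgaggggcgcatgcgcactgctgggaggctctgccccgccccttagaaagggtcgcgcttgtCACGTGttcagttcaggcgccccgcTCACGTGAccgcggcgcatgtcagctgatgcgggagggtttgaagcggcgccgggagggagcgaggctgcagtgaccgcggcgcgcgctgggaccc
Cln3, chr7:126583187-126583486 (minus strand): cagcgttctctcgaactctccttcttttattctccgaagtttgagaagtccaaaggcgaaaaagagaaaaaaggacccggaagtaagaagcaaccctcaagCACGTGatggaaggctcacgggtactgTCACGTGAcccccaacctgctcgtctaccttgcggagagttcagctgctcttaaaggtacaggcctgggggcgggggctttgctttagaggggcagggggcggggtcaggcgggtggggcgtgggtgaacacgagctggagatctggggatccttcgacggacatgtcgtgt
The Lamp1 promoter held 4 copies of CACGTG, those of Ctsd, Ctsa, Gla, Mcoln1 and Cln3 held 2 each, and those of Ctsa and Gla held the longer form both times. A motif match is a description of these letters and does not show that a factor binds there. The printed promoters were chosen by values in these same data, so they cannot show that the motif goes with expression. Ctsf, Ctsl, Lgmn, Arsa, Gaa, Glb1 and Naglu hold the motif too, overlapped the untreated libraries at 5 days and are not printed. Ctsa and Cln3 each have a further promoter in the table without the motif.

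Totals were 5576926 to 5696436 counts per library, with 19790 to 21264 genes detected, and values below are CPM, counts scaled to the TMM-adjusted library total. Library 1 of the 5-day group stands apart from the other 9 libraries. Its TMM factor was 0.812, against 1.00 to 1.04 in the others, and 15 adrenergic genes that define the tumour cells summed to 794 CPM in it, against 2356 to 3620.5 CPM in the others. Its macrophage markers summed to 13648 CPM, its fibroblast markers to 17995 CPM and its adipocyte markers to 12324 CPM, each the highest of the 10 libraries. Transcripts of other organs were present in the 5-day group. Its library 2 held 1574 CPM of adrenal cortex, 323 CPM of hepatocyte and 422 CPM of skeletal muscle markers. Library 3 held 93.1 CPM of adrenal cortex markers and library 4 held 151.6 CPM of skeletal muscle markers. Untreated libraries ranged from 10.7 to 12.7 CPM for adrenal cortex and from 2.26 to 2.78 CPM for skeletal muscle. Of kidney tubule markers, 5-day library 1 held 26.4 CPM and untreated library 3 held 54 CPM. Ms4a1, Ly6g, Acta1 and Alas2, markers of B cells, neutrophils, skeletal muscle and erythroid cells, were listed at 0 throughout. Results are therefore given with all 10 libraries and with 9, leaving out 5-day library 1. In bulk tissue, fewer cells of a type and less RNA per cell cannot be told apart.

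Expression per length was dominated by a few genes. Per kilobase of exon, Psap, the precursor of the saposins, was highest in untreated tumours at 335 CPM per kilobase, followed by the carboxypeptidase gene Ctsz at 122, the cysteine protease gene Ctsb at 111, the asparaginyl endopeptidase gene Lgmn at 54.1 and Hexa, which encodes the alpha subunit of beta-hexosaminidase, at 41.2 CPM per kilobase. Ctsz and Ctsb had overlapping libraries on this scale, while Psap lay above both in every untreated library. At the low end were the transcription factor genes Tfeb at 0.727 and Mitf at 0.768 CPM per kilobase, while Tfe3, the third of the family, was at 4.47. Psap and Ctsb together held 46.0% to 52.0% of the CPM summed over the 39 genes in every library. Galns, which encodes a sulfatase of keratan sulfate, was listed at 0 in all 10 libraries and was not tested. Among the related genes described below, Atp6v0c and Map1lc3b, genes that cells generally use, and the hydrolase gene Acp5 were listed at 0 too.

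**Figure D1:**
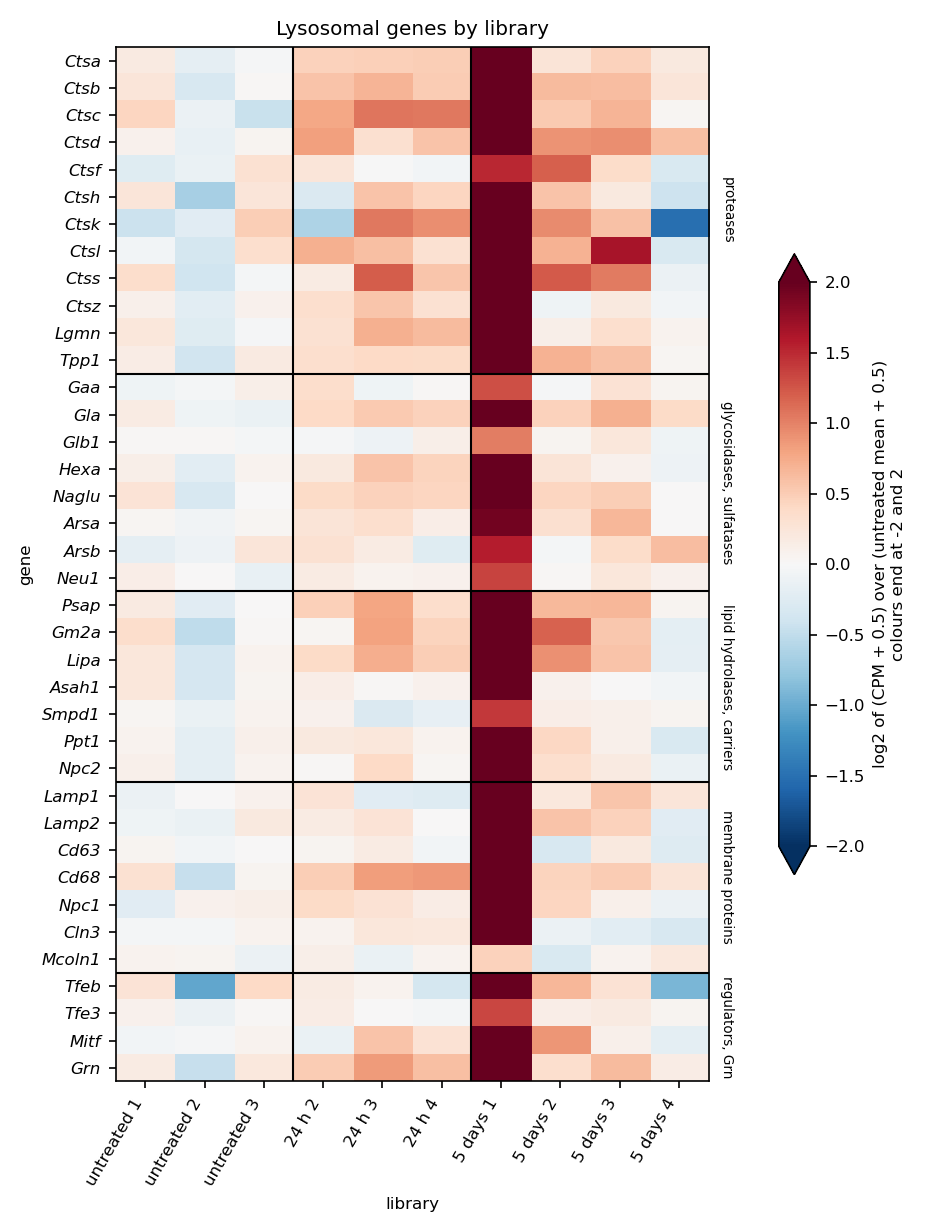
Level of each of the 38 tested lysosomal genes (rows, grouped by role) in each of the 10 libraries (columns), as the log2 ratio of CPM + 0.5 to the untreated mean + 0.5, with colours ending at -2 and 2. 5-day library 1 is the highest library for all 38 genes, the 24 h columns are mostly red among the proteases, and 5-day library 4 is close to the untreated columns.

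Early responses to the drugs are addressed by setting the 24 h tumours against the untreated ones. Proteases had the highest median of the 5 roles: all 12 had a higher mean at 24 h, with a median log2 fold change of 0.56, and 7 of them (Ctsa, Ctsb, Ctsc, Ctsd, Ctsz, Lgmn and Tpp1) had every 24 h library above every untreated library. Over all 38 tested lysosomal genes, 34 had a log2 fold change above 0, against 48.5% of all 14956 tested genes above 0 and 51.5% below, with a median of 0.29, against -0.01 for all genes. In 17 of the 38 the 24 h libraries lay wholly above the untreated ones and in 0 wholly below, against 7.1% and 6.67% of all tested genes. None of the 38 passed edgeR's quasi-likelihood test (Benjamini-Hochberg adjusted p = 1 for each with all 10 libraries, where 0% of all genes passed), and 0 had an unadjusted p under 0.05 in the higher or lower direction (1.14% and 0.615% of all genes). With 9 libraries 0 passed (smallest adjusted p = 0.271; 0.0136% of all genes passed in the higher direction) and 11 had an unadjusted p under 0.05 in the higher direction and 0 in the lower, against 4.56% and 3.54% of all genes. In that fit 35 of the 38 were above 0 (49.5% of all genes above 0, 50.5% below), and among its 14699 tested genes 7.13% lay wholly above and 6.7% wholly below the untreated libraries. DESeq2 on those 9 libraries, an alternative added after the data were seen, called Ctsa, Ctsb, Ctsc, Ctsd, Lgmn and Cd68 (adjusted p = 0.0119 to 0.0415), where it called 88 genes in all, 0.818% of those with an adjusted p. DESeq2 on all 10 called 0 of the 38 and 0% of all genes.

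Among the proteases, Ctsc encodes the dipeptidyl peptidase that activates granule proteases of immune cells. It was at 66.6, 82.3 and 80.9 CPM in the 24 h libraries, against 52.2, 35.7 and 28.5 CPM in the untreated libraries. The groups did not overlap, and its mean was 1.98 times the untreated mean, the largest ratio of the 38 genes. Ctsb was at 1002, 1082 and 952 CPM in the 24 h libraries, against 799, 536 and 682 CPM in the untreated libraries, again without overlap. Ctsd, the main aspartic protease, was at 120.2, 85.1 and 101 CPM in the 24 h libraries, against 71.8, 61.5 and 70.3 CPM in the untreated libraries. All 3 of its 24 h libraries were higher, with library 3 the nearest to the untreated values. Lgmn was at 155, 206 and 195 CPM in the 24 h libraries, against 147, 106 and 124 CPM in the untreated libraries. Its 24 h library 2 was above untreated library 1 by less than the spread of either group. Ctsa, which encodes the carboxypeptidase that shields beta-galactosidase and neuraminidase, is named after its values were seen and was at 132, 134 and 135 CPM in the 24 h libraries, against 109, 84.8 and 94 CPM in the untreated libraries. The 24 h libraries lay close together, all above the untreated range. Log2 fold changes with 9 libraries were 0.99 ± 0.23 for Ctsc, 0.59 ± 0.15 for Ctsb, 0.60 ± 0.14 for Ctsd, 0.57 ± 0.14 for Lgmn and 0.48 ± 0.11 for Ctsa (SE; edgeR, adjusted p = 0.306, 0.341, 0.286, 0.321 and 0.271 in that order).

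Ctsl and Ctss did not separate the groups. Ctsl, a cysteine endopeptidase gene, was at 175, 162 and 132 CPM in the 24 h libraries, against 102, 83.1 and 134 CPM in the untreated libraries, where 24 h library 4 lay just below untreated library 3. Ctss, whose enzyme trims the invariant chain in antigen-presenting cells, was at 57.3, 119 and 75.4 CPM in the 24 h libraries, against 65.5, 38.7 and 49.8 CPM in the untreated libraries. Libraries 3 and 4 lay above the untreated range and library 2 within it, and the log2 fold change was 0.71 ± 0.42 (SE; edgeR, adjusted p = 0.714 with 9 libraries). Some of these counts are uncertain because exons are shared with other annotated genes and no source states whether counting used strand: 34.4% of the exon bases of Ctsd overlap Gm49369 on the same strand, and, on the opposite strand, 26.8% of those of Ctsl, 17.4% of those of Ctsa and 12.8% of those of Ctsb overlap other genes.

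Glycosidases and sulfatases were nearer to their untreated levels, with a median log2 fold change of 0.19 over 8 tested genes. Of these, 7 were above 0 and 4 wholly above the untreated libraries, against 48.5% and 7.1% of all tested genes. Gla, which encodes alpha-galactosidase A, was at 16.9, 18.5 and 17.7 CPM in the 24 h libraries, against 14.3, 12 and 11.6 CPM in the untreated libraries. Every 24 h library was above the highest untreated one. Hexa was at 93.7, 122 and 112 CPM in the 24 h libraries, against 89.2, 71.2 and 86.1 CPM in the untreated libraries. Naglu, whose enzyme removes N-acetylglucosamine from heparan sulfate, was at 15.2, 16 and 15.6 CPM in the 24 h libraries, against 14, 9.06 and 11.5 CPM in the untreated libraries. Both separated the groups, with 24 h library 2 the nearest for each. Arsa, the sulfatase gene for sulfatides, was at 12.7, 13.4 and 11.6 CPM in the 24 h libraries, against 10.8, 9.93 and 10.8 CPM in the untreated libraries, a separation of few counts. Arsb, the sulfatase gene for dermatan sulfate, was at 11.4, 10.3 and 7.64 CPM in the 24 h libraries, against 8.03, 8.53 and 10.9 CPM in the untreated libraries, and the groups overlapped. Exon bases shared with genes of the opposite strand came to 12.8% in Hexa, 18.8% in Arsa and 39.9% in Arsb.

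Of the lipid group, 6 of 7 had a log2 fold change above 0 (median 0.17) and 2 lay wholly above, against 48.5% and 7.1% of all tested genes. Psap was at 1285, 1591 and 1170.0 CPM in the 24 h libraries, against 1046, 784 and 929.6 CPM in the untreated libraries. Lipa, which encodes the acid lipase of cholesteryl esters, was at 53.9, 68.2 and 58 CPM in the 24 h libraries, against 47.8, 32.4 and 42.9 CPM in the untreated libraries. Both were higher in all 3 libraries at 24 h, with log2 fold changes of 0.56 ± 0.19 and 0.55 ± 0.26 (SE; edgeR with 9 libraries, adjusted p = 0.488 and 0.635). Gm2a, the activator of ganglioside breakdown, was at 29.3, 50.3 and 38.9 CPM in the 24 h libraries, against 36.5, 19.9 and 29 CPM in the untreated libraries, and 24 h library 2 fell among the untreated values. Npc2, the soluble cholesterol carrier, was at 130.0, 168 and 130.4 CPM in the 24 h libraries, against 137, 111 and 134 CPM in the untreated libraries, with overlap. Smpd1, the acid sphingomyelinase gene, was at 28.6, 22.1 and 24 CPM in the 24 h libraries, against 27.9, 24.7 and 28.3 CPM in the untreated libraries and had a log2 fold change below 0, -0.11 ± 0.13 (SE; adjusted p = 0.863 by edgeR with 9 libraries).

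Membrane proteins had a median log2 fold change of 0.16, with 6 of 7 above 0 and 3 without overlap (Cd68, Npc1 and Cln3). Over all tested genes 48.5% were above 0 and 7.1% wholly above. Cd68, a glycoprotein of macrophage lysosomes, was at 48.2, 61.1 and 62.7 CPM in the 24 h libraries, against 42.4, 24.7 and 35.3 CPM in the untreated libraries, and every 24 h library was higher. The more general membrane glycoproteins of the lysosome overlapped: Lamp1 was at 76.8, 54.1 and 53 CPM in the 24 h libraries, against 58.5, 63.9 and 67.4 CPM in the untreated libraries. Its 24 h libraries 3 and 4 were below all untreated libraries and library 2 was above them. Lamp2 was at 66, 70.9 and 59.2 CPM in the 24 h libraries, against 55, 53.6 and 67.2 CPM in the untreated libraries. Npc1, the membrane partner of Npc2 in cholesterol export, was at 29.1, 27 and 24.5 CPM in the 24 h libraries, against 18.9, 23.5 and 24 CPM in the untreated libraries. Cln3, a membrane protein lost in juvenile Batten disease, was at 16, 17.8 and 17.7 CPM in the 24 h libraries, against 14.8, 14.8 and 16 CPM in the untreated libraries, where the nearest libraries of the groups had 93 and 92 counts. Mcoln1, the calcium channel gene TRPML1, was at 40.8, 33.9 and 39.4 CPM in the 24 h libraries, against 39.1, 38.8 and 34.4 CPM in the untreated libraries, so that the 24 h libraries spanned the untreated ones.

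Among the regulators, the transcription factor genes did not separate the groups at 24 h. Tfeb was at 4.65, 4.35 and 3.13 CPM in the 24 h libraries, against 5.06, 1.74 and 5.56 CPM in the untreated libraries, with overlap. Tfe3, the most abundant of the family per length, was at 45.8, 41.4 and 40.5 CPM in the 24 h libraries, against 44, 38.1 and 42.2 CPM in the untreated libraries, again overlapping. Mitf was at 4.3, 7.31 and 5.9 CPM in the 24 h libraries, against 4.54, 4.7 and 5.04 CPM in the untreated libraries. Their log2 fold changes were -0.02 ± 0.50, 0.04 ± 0.10 and 0.30 ± 0.35 (SE, 9 libraries; edgeR, adjusted p = 0.992, 0.94 and 0.858), and transcript levels say nothing of where the proteins are in the cell. Grn, which encodes progranulin, a secreted and lysosomal glycoprotein, was at 159, 201 and 169 CPM in the 24 h libraries, against 124, 80.8 and 129 CPM in the untreated libraries. It separated the groups, with a log2 fold change of 0.67 ± 0.19 (SE; edgeR, adjusted p = 0.407 with 9 libraries).

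The other 11 tested genes (Ctsf, Ctsh, Ctsk, Ctsz, Tpp1, Gaa, Glb1, Neu1, Asah1, Ppt1 and Cd63) had log2 fold changes at 24 h between 0.00 for Glb1 and 0.69 for Ctsk with 9 libraries. Of these, Ctsz and Tpp1 separated the groups. At 5 days without library 1 they ran from -0.11 for Cd63, a tetraspanin of late endosomes, to 0.58 for Ctsf, and the groups overlapped in all 11.

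Macrophage markers were also higher in the 24 h libraries. Their sum over 16 genes was 1236, 1522 and 1435 CPM in the 24 h libraries, against 987, 581 and 866 CPM in the untreated libraries, a ratio of means of 1.72, while the 39 lysosomal genes summed to 4529, 5146 and 4365 CPM at 24 h, against 3774, 2871 and 3495 CPM untreated, a ratio of 1.38. Of the 16 markers, 14 had a higher mean at 24 h, 7 lay wholly above the untreated libraries (7.1% of all genes), and none was at 0 throughout. Untreated library 2 had the lowest macrophage sum and was the lowest of the 10 libraries for 21 of the 38 lysosomal genes. The share of all genes lowest there is not given here. T cell, B cell and neutrophil sums were lowest there too (3.83, 0.348 and 0.174 CPM, few counts), while fibroblast and endothelial sums were lowest in 5-day library 4. Schwann cell markers summed to 117, 131 and 146 CPM at 24 h, against 99.4, 108 and 95.3 CPM untreated, and adrenergic genes to 3097, 2819.5 and 2526 CPM, against 3620.5, 2791 and 2958 CPM. Of 9 Schwann cell markers, 8 had a higher mean at 24 h and 5 lay wholly above the untreated libraries. The T cell sum had a ratio of 1.7, with 4 of 7 markers higher and 1 wholly above. Of fibroblast markers 4 of 12, and of endothelial markers 2 of 8, had a higher mean at 24 h. The part of these cells in the lysosomal values was not tested.

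**Figure D2:**
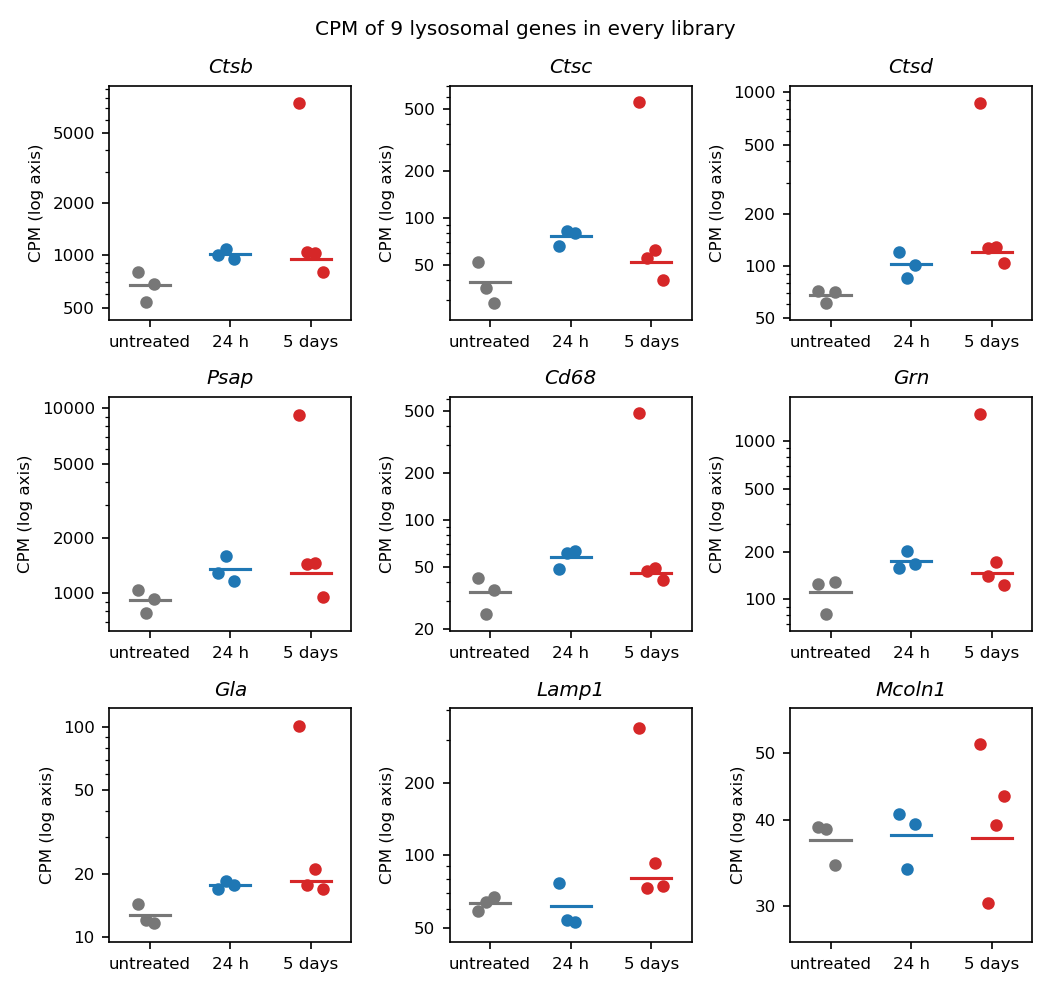
CPM (log axes) of 9 lysosomal genes in every untreated, 24 h and 5-day library; each point is 1 library, and lines are group means, taken without 5-day library 1 in the 5-day group. For Ctsb, Ctsc, Ctsd, Psap, Cd68, Grn and Gla every 24 h point lies above every untreated point, 5-day library 1 is the top point in each panel, and the Mcoln1 groups overlap.

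Longer treatment is addressed by the 5-day tumours, and the size of that difference depended on library 1. With all 10 libraries, all 38 genes had a log2 fold change above 0 (50.6% of all tested genes above 0, 49.4% below), with a median of 1.56. Without library 1, 36 of 38 did (49.5% of all genes above 0, 50.5% below) and the median was 0.33, against 0.00 for all genes. Library 1 was the highest of the 10 libraries for all 38 genes, and its median ratio to the untreated mean was 7.74 over these genes, against 0.948 over all tested genes. With library 1, 0 genes passed edgeR's test (smallest adjusted p = 0.538; 0% of all genes passed) and 14 had an unadjusted p under 0.05 in the higher direction and 0 in the lower, against 6.38% and 2.03% of all genes. Without it, 0 passed again (smallest adjusted p = 0.22; 0% of all genes) and 8 had such a p in the higher and 0 in the lower direction, against 4.65% and 3.86% of all genes. DESeq2 without library 1 called Ctsd (log2 fold change 0.83, adjusted p = 0.000287), 1 of 90 genes in all or 0.593% of those with an adjusted p. With library 1 DESeq2 called 0 of the 38 and 27 genes in all, 0.174%.

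In 4 of the 38 genes, Ctsd, Ctsa, Gla and Lamp1, every 5-day library was above every untreated library, with or without library 1 (3.91% of all genes with it, 6.45% without). With library 1 no lysosomal gene was wholly below, against 4.99% of all genes. Without it 1 was, against 7.76% of all genes. Without library 1 both counts are near the shares of all genes, so they are not read as particular to lysosomal genes. Ctsd was at 866 CPM in 5-day library 1 and 127, 129 and 104 CPM in 5-day libraries 2, 3 and 4, against 71.8, 61.5 and 70.3 CPM in the untreated libraries. The nearest libraries of the groups were well apart, and the log2 fold change was 0.82 ± 0.14 without library 1, against 2.18 ± 0.76 with it (SE; edgeR, adjusted p = 0.22 and 0.538). Ctsa was at 719 CPM in 5-day library 1 and 115, 132 and 109.6 CPM in 5-day libraries 2, 3 and 4, against 109, 84.8 and 94 CPM in the untreated libraries, and its library 4 exceeded untreated library 1 by less than the spread among untreated libraries. Gla was at 101 CPM in 5-day library 1 and 17.6, 21.1 and 16.8 CPM in 5-day libraries 2, 3 and 4, against 14.3, 12 and 11.6 CPM in the untreated libraries. Lamp1 was at 339 CPM in 5-day library 1 and 73, 93.1 and 74.8 CPM in 5-day libraries 2, 3 and 4, against 58.5, 63.9 and 67.4 CPM in the untreated libraries. Log2 fold changes without library 1 were 0.31 ± 0.11 for Ctsa, 0.55 ± 0.16 for Gla and 0.35 ± 0.15 for Lamp1 (SE; edgeR, adjusted p = 0.496, 0.364 and 0.573). At 24 h the Lamp1 libraries overlapped the untreated ones.

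Cln3 lay on the other side without library 1. It was at 63.8 CPM in 5-day library 1 and 13.9, 13 and 12.1 CPM in 5-day libraries 2, 3 and 4, against 14.8, 14.8 and 16 CPM in the untreated libraries. Libraries 2 to 4 were all below the untreated range (7.76% of all genes without library 1) and library 1 was above it, so its log2 fold change was 0.76 ± 0.58 with library 1 and -0.22 ± 0.15 without (SE; edgeR, adjusted p = 0.598 and 0.717). Mcoln1 was at 51.5 CPM in 5-day library 1 and 30.3, 39.3 and 43.3 CPM in 5-day libraries 2, 3 and 4, against 39.1, 38.8 and 34.4 CPM in the untreated libraries, the smallest ratio of library 1 to the untreated mean among the 38 genes (1.37). Its libraries 2 to 4 spanned the untreated values.

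For 5 more proteases, library 1 stood highest and library 4 was within the untreated range. Ctsl was at 2483 CPM in 5-day library 1 and 173, 335 and 86.2 CPM in 5-day libraries 2, 3 and 4, against 102, 83.1 and 134 CPM in the untreated libraries, and its library 1 was 23.3 times the untreated mean, the largest ratio of the 38. Ctss was at 1187 CPM in 5-day library 1 and 121, 106 and 47.5 CPM in 5-day libraries 2, 3 and 4, against 65.5, 38.7 and 49.8 CPM in the untreated libraries. In both, libraries 2 and 3 were above the untreated range and library 4 was within it. Ctsb was at 7464 CPM in 5-day library 1 and 1040.4, 1029 and 798 CPM in 5-day libraries 2, 3 and 4, against 799, 536 and 682 CPM in the untreated libraries, with library 4 level with untreated library 1. Ctsc was at 553 CPM in 5-day library 1 and 55.9, 62.4 and 39.9 CPM in 5-day libraries 2, 3 and 4, against 52.2, 35.7 and 28.5 CPM in the untreated libraries. Lgmn was at 1159.8 CPM in 5-day library 1 and 137, 158 and 133 CPM in 5-day libraries 2, 3 and 4, against 147, 106 and 124 CPM in the untreated libraries. Each had library 4 inside the untreated range.

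Of the lipid group, library 4 was again near the untreated values. Psap was at 9226 CPM in 5-day library 1 and 1441, 1464 and 958 CPM in 5-day libraries 2, 3 and 4, against 1046, 784 and 929.6 CPM in the untreated libraries. Gm2a was at 353 CPM in 5-day library 1 and 65.5, 41.5 and 24.8 CPM in 5-day libraries 2, 3 and 4, against 36.5, 19.9 and 29 CPM in the untreated libraries. Lipa was at 769 CPM in 5-day library 1 and 77.3, 60.9 and 36.3 CPM in 5-day libraries 2, 3 and 4, against 47.8, 32.4 and 42.9 CPM in the untreated libraries. In these 3 genes libraries 2 and 3 exceeded all untreated libraries and library 4 did not. Grn was at 1495 CPM in 5-day library 1 and 142, 173 and 124 CPM in 5-day libraries 2, 3 and 4, against 124, 80.8 and 129 CPM in the untreated libraries. Cd68 was at 482 CPM in 5-day library 1 and 46.5, 48.7 and 40.9 CPM in 5-day libraries 2, 3 and 4, against 42.4, 24.7 and 35.3 CPM in the untreated libraries. Neither separated the groups, since library 4 fell within the untreated range in each. Hexa was at 575 CPM in 5-day library 1 and 98.5, 87.7 and 76.2 CPM in 5-day libraries 2, 3 and 4, against 89.2, 71.2 and 86.1 CPM in the untreated libraries. Naglu was at 119 CPM in 5-day library 1 and 15.7, 16.3 and 11.5 CPM in 5-day libraries 2, 3 and 4, against 14, 9.06 and 11.5 CPM in the untreated libraries. Arsa was at 41.5 CPM in 5-day library 1 and 13.3, 17 and 10.5 CPM in 5-day libraries 2, 3 and 4, against 10.8, 9.93 and 10.8 CPM in the untreated libraries. These 3 overlapped the untreated libraries too.

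Other named genes differed in which library stood out. Arsb was at 28.3 CPM in 5-day library 1 and 8.9, 12 and 14.4 CPM in 5-day libraries 2, 3 and 4, against 8.03, 8.53 and 10.9 CPM in the untreated libraries, with library 4 the highest of libraries 2 to 4. Smpd1 was at 72.9 CPM in 5-day library 1 and 29.8, 29 and 28 CPM in 5-day libraries 2, 3 and 4, against 27.9, 24.7 and 28.3 CPM in the untreated libraries. Npc2 was at 790.2 CPM in 5-day library 1 and 161, 144 and 116 CPM in 5-day libraries 2, 3 and 4, against 137, 111 and 134 CPM in the untreated libraries. In both, library 4 lay within the untreated range. Lamp2 was at 605 CPM in 5-day library 1 and 87.2, 81.1 and 49.8 CPM in 5-day libraries 2, 3 and 4, against 55, 53.6 and 67.2 CPM in the untreated libraries. Npc1 was at 138 CPM in 5-day library 1 and 29.8, 23.8 and 20.4 CPM in 5-day libraries 2, 3 and 4, against 18.9, 23.5 and 24 CPM in the untreated libraries. Lamp2 was above the untreated range in libraries 1 to 3 and below it in library 4, and Npc1 was within it in libraries 3 and 4.

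At 5 days the MiT family genes overlapped their untreated levels outside library 1. Tfe3 was at 106 CPM in 5-day library 1 and 45.2, 47 and 42.9 CPM in 5-day libraries 2, 3 and 4, against 44, 38.1 and 42.2 CPM in the untreated libraries. Mitf was at 78.1 CPM in 5-day library 1 and 9.24, 5.15 and 4.08 CPM in 5-day libraries 2, 3 and 4, against 4.54, 4.7 and 5.04 CPM in the untreated libraries, and library 2 was well above the untreated range. Tfeb was at 42.6 CPM in 5-day library 1 and 6.84, 5.15 and 1.95 CPM in 5-day libraries 2, 3 and 4, against 5.06, 1.74 and 5.56 CPM in the untreated libraries. For Tfeb, 5-day library 4 and untreated library 2 held 11 and 10 counts, few enough that counting error is large. Without library 1 their log2 fold changes were 0.12 ± 0.10 for Tfe3, 0.38 ± 0.35 for Mitf and 0.18 ± 0.50 for Tfeb (SE; edgeR, adjusted p = 0.771, 0.79 and 0.948).

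**Figure D3:**
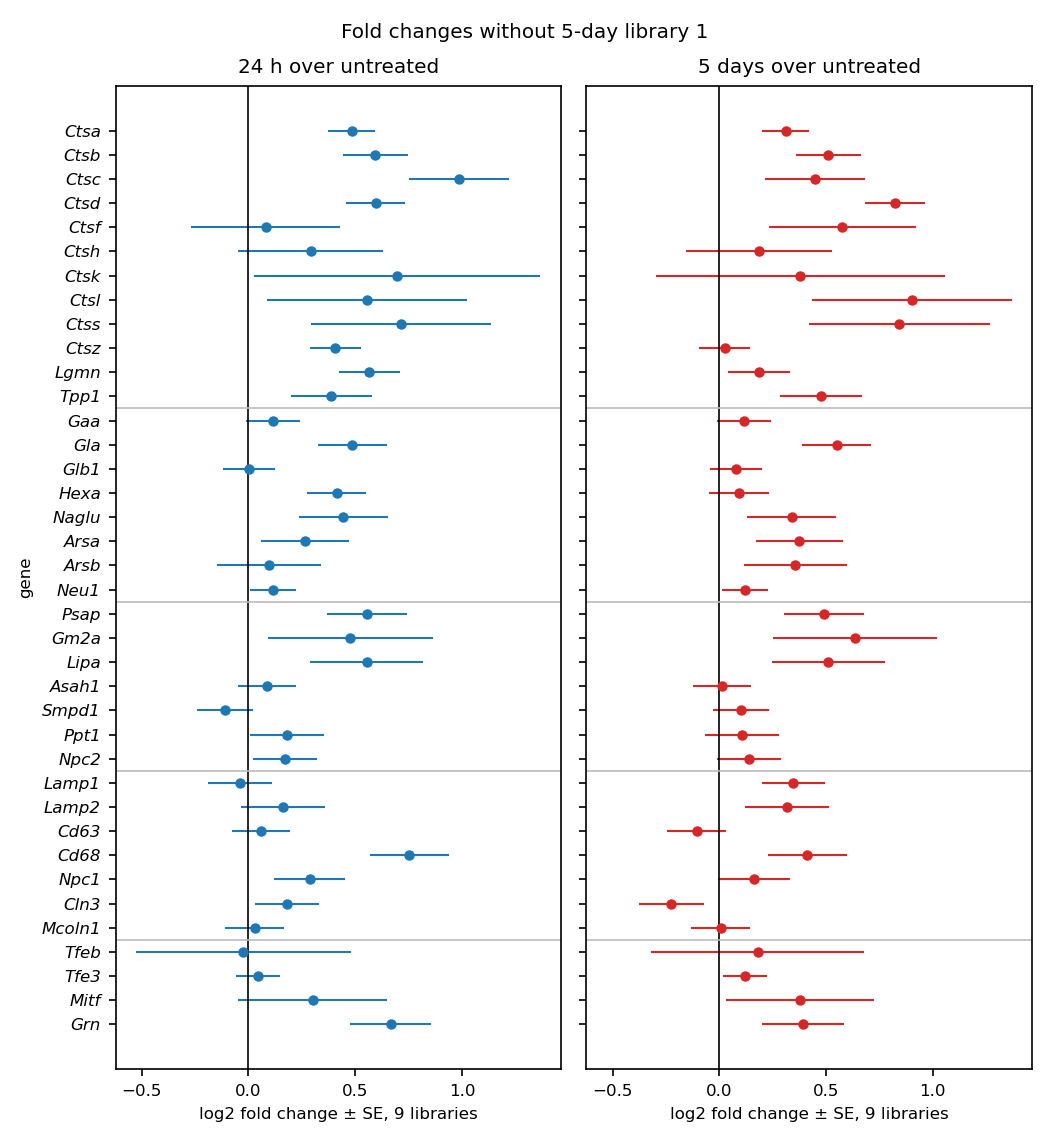
Log2 fold change ± SE (edgeR, 9 libraries without 5-day library 1) of the 38 tested lysosomal genes at 24 h (left) and 5 days (right) over untreated tumours; points right of 0 are higher in treated tumours and grey lines divide the roles. All 12 proteases, in the top block, are right of 0 in both panels, and Cd63 and Cln3 are left of 0 at 5 days.

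The 5-day libraries differed among themselves. Summed over the 39 genes, they held 32476, 4789, 5033 and 3554 CPM in libraries 1 to 4, against 3774, 2871 and 3495 CPM in the untreated libraries. Library 4 was above all untreated libraries in 6 of the 38 genes and below all of them in 8, against 27.8% and 26.8% of all tested genes. Library 2 was above in 29 of the 38 and library 3 in 31, against 26.2% and 25.8% of all tested genes. Macrophage markers were also highest in library 1 and lowest in library 4: 13648, 1649, 1563 and 978 CPM in libraries 1 to 4, against 987, 581 and 866 CPM untreated. Of the 16 macrophage markers, 13 had a higher mean at 5 days without library 1 and 3 lay wholly above the untreated libraries (6.45% of all genes). Fibroblast, adipocyte, endothelial, pericyte and T cell sums were also highest in library 1 and lowest in library 4. Fibroblast markers, for example, were at 17995, 1429, 2318.5 and 367.5 CPM, and T cell markers at 83.1, 15.9, 9.43 and 6.03 CPM. Adrenal cortex, hepatocyte, skeletal muscle and erythroid sums were highest in library 2, and the adrenergic sum was lowest in library 1. Leaving out libraries 1 and 2 together, an alternative added after the data were seen, gave a median log2 fold change of 0.17 over the 38 genes. The part of macrophages, of other cell types or of tissue from other organs in these values was not tested.

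Between 5 days and 24 h, which share their libraries with the comparisons above, no lysosomal gene passed edgeR's test with all 10 libraries (smallest adjusted p = 0.581; 0% of all genes passed) or with 9 (smallest adjusted p = 0.602; 0% of all genes). With 10 libraries 1 of the 38 had an unadjusted p under 0.05 in the higher direction and 0 in the lower, against 3.96% and 2.34% of all genes. Without library 1, 1 was higher and 5 were lower by that measure, against 3.67% and 4.09% of all genes. The median log2 fold change was 1.13 with library 1, when all 38 were above 0 (52.8% of all genes, 47.2% below). It was -0.03 without library 1, when 17 were higher and 21 lower at 5 days (49.5% and 50.5% of all genes). Ctsc, Ctsa, Ctsz and Cln3 had 5-day libraries 2 to 4 all below the 24 h libraries, against 6.75% of all genes, and none had them all above, against 5.18%. Ctsc, for example, was at 55.9, 62.4 and 39.9 CPM in 5-day libraries 2 to 4, against 66.6, 82.3 and 80.9 CPM in the 24 h libraries. With library 1 no gene separated these groups in either direction, against 3.27% of all genes higher and 4.4% lower.

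**Figure D4:**
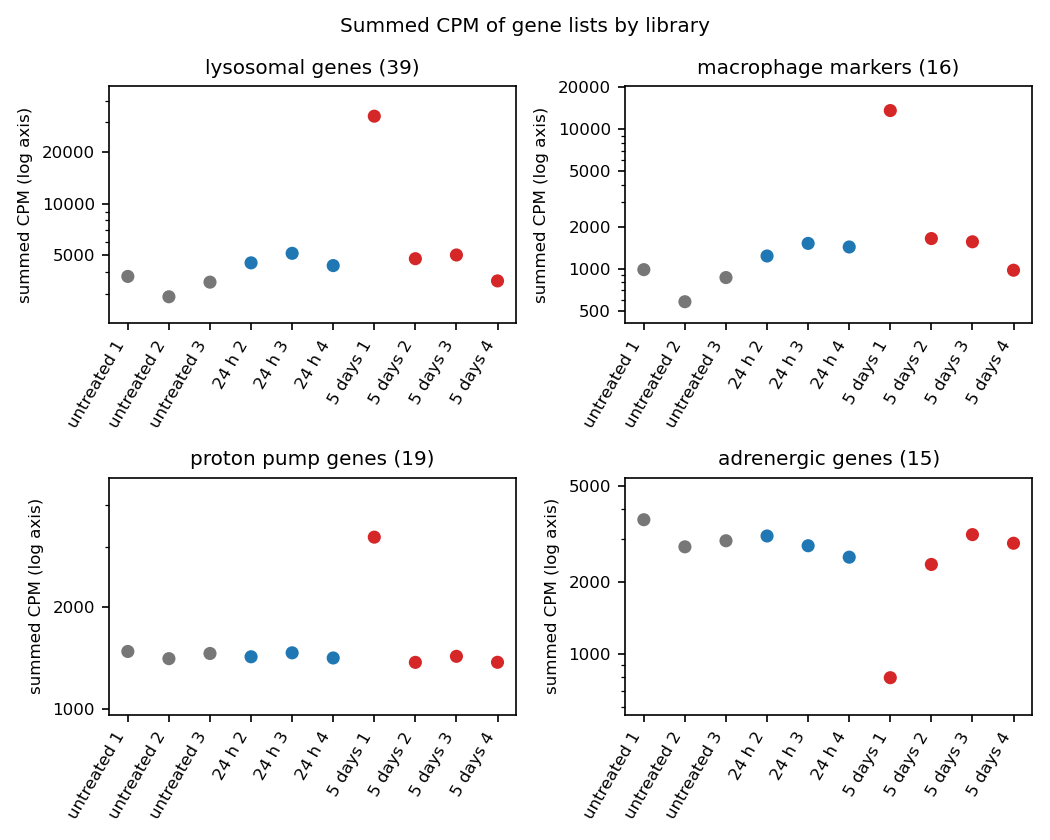
Summed CPM (log axes) of the 39 lysosomal genes, 16 macrophage markers, 19 proton pump genes and 15 adrenergic genes in each library. The lysosomal and macrophage sums are higher in the 24 h libraries than in the untreated ones, the pump sum is flat outside 5-day library 1, and the adrenergic sum is lowest in that library.

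Genes that acidify, supply or sense the lysosome were followed through lists of related genes, and none of their members passed edgeR's test in any comparison, with 9 or 10 libraries. The proton pump genes summed to 1424, 1463 and 1412 CPM at 24 h, against 1476, 1406 and 1456 CPM untreated, and 10 of 18 tested had a log2 fold change below 0 (median -0.03), against 51.5% of all genes (median -0.01). At 5 days without library 1, 15 of the 18 were below 0 (median -0.11), 5 of them without overlap, against 50.5% of all genes below 0 and 7.76% wholly below. Atp6v0d2, a pump subunit known from osteoclasts and macrophages, was at 29.6, 18.6 and 18.1 CPM in the 24 h libraries, against 12, 10.8 and 9.55 CPM in the untreated libraries. At 5 days it was at 326 CPM in library 1 and 37.3, 37.7 and 19.7 CPM in libraries 2 to 4. It was above the untreated range in all 7 treated libraries, with a log2 fold change of 1.55 ± 0.28 at 5 days (SE; edgeR without library 1, adjusted p = 0.243). Atp6v0a1 and Atp6v1h, subunits of the same pump, had log2 fold changes of 0.27 ± 0.12 and -0.16 ± 0.08 at 24 h (SE, 9 libraries).

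Of 23 other tested hydrolase genes, 20 had a log2 fold change above 0 at 24 h (median 0.25), against 48.5% of all genes. Of the 23, 5 lay wholly above the untreated libraries and 1 wholly below, against 7.1% and 6.67% of all genes. At 5 days without library 1, 20 were above 0 (median 0.32) and 9 wholly above the untreated libraries, against 49.5% and 6.45% of all genes. Dnase2a, the acid DNase gene, was at 10.2, 19.7 and 11.8 CPM in the 24 h libraries, against 11.7, 5.92 and 6.43 CPM in the untreated libraries, with overlap. The hyaluronidase gene Hyal2 was at 47, 43.2 and 43.8 CPM in the 24 h libraries, against 48, 54 and 55.9 CPM in the untreated libraries, the one gene of this list wholly below its untreated range.

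Delivery and sensing of the lysosome were covered by the remaining lists. At 24 h, with all 10 libraries, the medians were 0.05 for trafficking (9 of 15 above 0), 0.13 for other membrane proteins (12 of 15), 0.00 for the mTORC1 platform (7 of 15) and 0.07 for autophagy genes and MiT targets (8 of 11), and 1 of 2 tested cystatins was above 0, against 48.5% of all genes above 0 (median -0.01). At 5 days without library 1 they were 0.08, 0.07, -0.02 and 0.22 (9, 10, 7 and 10 above 0), and again 1 of 2 cystatins was above 0, against 49.5% of all genes (median 0.00). Gpnmb, a glycoprotein of macrophages and melanocytes and a known MiT target, was at 267, 231 and 220.0 CPM in the 24 h libraries, against 100.2, 95.3 and 121 CPM in the untreated libraries. It separated the groups at 24 h and at 5 days, where it was at 2241, 197, 383 and 127 CPM. Laptm4b, a lysosomal membrane protein gene, was at 65.8, 58.1 and 55.4 CPM in the 24 h libraries, against 50.8, 51.4 and 46.4 CPM in the untreated libraries. Slc38a9, the arginine sensor of mTORC1, was at 26.7, 27 and 26.7 CPM in the 24 h libraries, against 19.9, 21.8 and 20 CPM in the untreated libraries. Both were higher without overlap, where 7.1% of all tested genes lay wholly above and 6.67% wholly below. Rraga, a Rag GTPase gene of the same platform, was at 72.5, 71.9 and 68.1 CPM in the 24 h libraries, against 80.1, 85 and 77.5 CPM in the untreated libraries, wholly below. Fnip1, Rragb, Ulk1, Atg5, Gnptab, Gnptg, Vps11, Ap5z1, Cst3 and Cstb had log2 fold changes at 24 h between -0.31 and 0.39 with 9 libraries.

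The promoter motif can be set beside these values as a description. Of the 13 lysosomal genes with CACGTG in a promoter, 7 had the 24 h libraries wholly above the untreated ones (53.8%), as did 8 of the 21 without it (38.1%). At 5 days without library 1, the 4 genes wholly above the untreated libraries and the 1 wholly below were all among the 13. The rest of the 13 overlapped the untreated libraries. Over all tested genes with a promoter in the table, 7.19% with the motif and 7.66% without it lay wholly above at 24 h, and 6.52% and 7.03% at 5 days without library 1. Wholly below at 5 days without library 1 were 8.11% with the motif and 7.55% without it. Ctsb and Npc1, which separated the groups at 24 h, have no promoter in the table and are not in this split. With this few genes no test was made of the motif.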

How the data were processed

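The 10 deposited files, 1 per library, hold whole-number counts per Ensembl gene, as made by the authors. The submitters' processing notes name mm10 as genome build and list TopHat2 2.1.1, HISAT2 and edgeR; which step used which tool, how reads were counted against which annotation, and whether by strand, are not given in the sources used. Of 54446 identifiers 54409 were paired with a symbol through the gene name table. Genes passing filterByExpr (minimum count 10, minimum total 15) were fitted with edgeR 4.0.16 (TMM scaling, robust quasi-likelihood test, 1 mean per group), on all 10 libraries (14956 genes, biological coefficient of variation 40.8%) and on 9 without 5-day library 1 (14699 genes, 18.9%). P-values were Benjamini-Hochberg adjusted over all tested genes, with calls under 0.05. CPM use TMM-scaled totals. A standard error is the size of the log2 fold change divided by the square root of edgeR's F. "Without overlap" means that every library of 1 group lies beyond every library of the other. Alternatives used DESeq2 1.42.0, limma 3.58.1 (voom with library quality weights), other filters and scaling, and libraries left out in turn. Replicate pairs differed beyond sampling noise, so no library was counted as a duplicate. Counts limit precision: 3 counts correspond to 0.513 to 0.649 CPM. Exon lengths and overlaps come from GENCODE M21 on the same build. The test scripts were tested on simulated data.

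The 39 genes and the lists of related genes and markers were chosen with earlier results of these data known. Named were, per role and per comparison with untreated tumours, the 4 genes with the smallest unadjusted p (10 libraries), 10 set genes and, per related list, up to 3 genes at 24 h. 1 related gene that the rule names is not reported here. Ctsa and Ctsz lie outside this rule where values are given, as do genes listed for not overlapping.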

Additional observations from a re-analysis of the deposited data

Results flagged for a closer look

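In 33 of the 38 lysosomal genes with counts, library 1 of the 5-day group lay so far above the other 3 that its gap to the nearest, divided by the range of the 4 libraries, passed Dixon's 95% critical value for 4 samples. Chance alone flags about 1 in 20 groups, and the 33 flags come from 1 library, so they are not independent of each other. The rule was applied to the lysosomal genes only, so the share of all genes that it would flag is not known. Over all tested genes, this library lay above all untreated libraries in 42.1% and below all of them in 45.5%. Among lysosomal genes it lay above in all 38, with a median ratio to the untreated mean of 7.74, against 0.948 over all tested genes. Because the share of all genes flagged is not known, the flags are not read as particular to lysosomal genes. For the proteases the quotient was 0.964 for Ctsa, 0.964 for Ctsb, 0.956 for Ctsc, 0.966 for Ctsd, 0.935 for Ctsh, 0.919 for Ctsk, 0.896 for Ctsl, 0.935 for Ctss, 0.942 for Ctsz, 0.975 for Lgmn and 0.928 for Tpp1. For the glycosidases it was 0.838 for Gaa, 0.949 for Gla, 0.955 for Hexa, 0.955 for Naglu and 0.894 for Neu1. For the lipid group it was 0.939 for Psap, 0.876 for Gm2a, 0.944 for Lipa, 0.968 for Asah1, 0.961 for Smpd1, 0.857 for Ppt1 and 0.933 for Npc2. For the membrane proteins it was 0.924 for Lamp1, 0.933 for Lamp2, 0.913 for Cd63, 0.982 for Cd68, 0.92 for Npc1 and 0.965 for Cln3. For the regulators it was 0.88 for Tfeb, 0.935 for Tfe3, 0.93 for Mitf and 0.965 for Grn. Ctsf, Glb1, Arsa, Arsb and Mcoln1 were not flagged. The same library held 13648 CPM of macrophage markers, against 1649, 1563 and 978 CPM in libraries 2 to 4, and 794 CPM of adrenergic genes, against 2356, 3138 and 2888 CPM. Its fibroblast markers summed to 17995 CPM, against 1429, 2318.5 and 367.5 CPM. The part of its cell types in the flags was not tested.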

How the results depend on the processing

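No lysosomal gene was called by edgeR or voom under any alternative. DESeq2 with 9 libraries, added after the data were seen, called 6 at 24 h and 1 at 5 days; the cause was not tested. Genes called over the whole table, 0 in each comparison as reported, came to 7 at 24 h when only the compared groups were fitted, 3 with voom, 88 with DESeq2 on 9 libraries and 3 with 8 libraries (5-day libraries 1 and 2 left out, also added later). At 5 days they came to 27 with DESeq2 and 90 with DESeq2 on 9 libraries, and for 5 days against 24 h to 3, 27 and 2 with DESeq2, DESeq2 on 9 libraries and 8 libraries. With 1 library left out at a time they ranged from 0 to 2 at 24 h, the 2 without 5-day library 1, and stayed at 0 otherwise.

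The median log2 fold change of the lysosomal genes, 0.29 at 24 h, ranged from 0.24 to 0.42 with 1 library left out. At 5 days it was 1.56, and 0.33 to 1.82 with 1 library left out, the lowest without 5-day library 1; it was 0.31 with voom, 0.33 with DESeq2 on 9 libraries and 0.17 with 8 libraries. For 5 days against 24 h it was 1.13, and -0.03 to 1.40 with 1 left out, the lowest without 5-day library 1; it was 0.03 with voom, -0.01 with DESeq2 on 9 libraries and -0.15 with 8.

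Same-numbered libraries did not deviate together throughout (correlations across genes from -0.395 to 0.247). Untreated and 24 h libraries numbered 2 had a correlation of 0.211 and those numbered 3 had 0.247. Different-numbered pairs of these groups had -0.291 to 0.049. With so few libraries per group, these correlations cannot decide whether the numbers pair them. With the replicate number as a block the medians were 0.98 at 24 h, 1.09 at 5 days and 0.20 between the times, and with the block on 9 libraries 0.52, 0.43 and -0.03; 0 lysosomal genes were called.

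Signs turned for genes near 0. At 24 h the block gave 1.05 for Tfeb, 0.35 for Lamp1 and 0.17 for Smpd1, the block on 9 libraries 0.55 for Tfeb, and voom -0.05 for Arsb. With 1 library left out, 24 h values ran from -0.04 to 0.24 for Arsb, -0.24 to 0.05 for Lamp1, -0.04 to 0.10 for Mcoln1, -0.02 to 0.08 for Tfe3 and -0.38 to 0.25 for Tfeb. At 5 days Cln3 was at -0.20 with voom, -0.22 with DESeq2 on 9 libraries, -0.22 with the block on 9 libraries and -0.28 with 8 libraries, and from -0.22 to 0.99 with 1 library left out. Mcoln1 was at -0.02 with the block on 9 libraries. With 8 libraries Tfeb was at -0.22, Mitf at -0.05, Hexa at -0.01 and Npc1 at 0.00. Among the other alternatives 1007 values of named genes kept their sign and side of the threshold, and 6 newly passed it. Low counts limit Tfeb, Mitf, Ctsk and Arsb most.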
